A study of Mus musculus with 3 samples.

Results

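Molecular chaperones are the proteins that fold other proteins and keep damaged ones from clumping. Hsp70 proteins bind short hydrophobic stretches of unfolded clients in a cycle driven by ATP. DnaJ proteins, also called Hsp40s, deliver clients and stimulate that ATP hydrolysis, while Hsp110 and Bag proteins release the nucleotide and let the client go. Hsp90 acts later, on nearly folded kinases and receptors. Small heat shock proteins hold unfolded clients without ATP. The heat shock factor Hsf1 induces many of these genes when unfolded proteins accumulate, and glia of the brain are known for high levels of the small heat shock protein Cryab.

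The genes described here were those that the arrays' probe annotation names Hspa, Hspb, Hsp90, Hspd1, Hspe1, Hsph1, Dnaja, Dnajb, Dnajc or Bag1 to Bag6, together with Hsf1, Hsf2 and Cryab. They were 80 genes of 22328, read by 121 probes of 55681. By class, 5 were cytosolic and nuclear Hsp70 genes, 5 organellar or divergent Hsp70 genes, 3 Hsp110 genes, 3 Hsp90 genes, 2 mitochondrial chaperonin genes and 8 small heat shock protein genes. A further 4 belonged to DnaJ class A, 13 to class B and 28 to class C, 6 were Bag genes and 2 were heat shock factors. Hspb11 was kept apart, since it is a subunit of the intraflagellar transport machinery in spite of its name. Hspa1b was not analysed here.

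The study measured RNA with 3 single-colour Agilent arrays. Each array held 1 culture of primary cerebral cells from C57BL6/J mouse embryos of embryonic day 18, treated on day 10 in vitro for 24 h. The first culture received 1 mM valproate, an antiepileptic drug that also inhibits class I histone deacetylases. The second received 100 µM lamotrigine, an antiepileptic blocker of sodium channels, and the third 0.1% DMSO alone. DMSO at 0.1% was present in all 3 cultures. With 1 culture and 1 array per treatment, no difference below has a replicate check, and precision is limited by how few arrays there are.

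Levels are given as scaled signal, set so that an array's 75th percentile equals 100, and differences as log2 of the ratio of scaled signals. Signals of different probes depend on the probe and are not set against each other. The 75th percentile itself was 478 on the valproate array, 388 on the lamotrigine array and 372 on the DMSO array. Repeated spots of the same probe gave a technical SD of 0.09 for a log2 difference between the valproate and DMSO arrays, and 0.23 for probes with a scaled signal under 25. This error leaves out everything that happens before hybridisation. All 12 pan-neuronal and all 12 astrocyte markers were detected on every array, whereas the microglial markers Cx3cr1, P2ry12 and C1qa were not well above background on any. RNA of several cell types was thus present, and fewer cells of a type cannot be told apart from less RNA per cell.

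Of the 80 genes, 72 were detected on all 3 arrays and 2 on some of them. The other 6, Dnajb7, Dnajb8, Dnajc22, Dnajc5b, Dnajc5g and Hspb7, were not well above background on any array. Dnajb7 and Dnajb8 are known from testis, and Hspb7 from heart.

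The promoter sequences below are shown because Hspa1a and Hspb1 were the heat shock proteins farthest above the DMSO array, while Hspd1, Hspe1 and Hspa5 lay close to it. They are RefSeq sequences of assembly GRCm38.p6, read 5′ to 3′ on the strand of the gene, and end before the annotated start site. A RefSeq promoter was matched by symbol for 63 of the 80 genes, and the search covered the 250 bases before each start site. Capitals in the first 4 mark heat shock elements, here written GAANNTTC or TTCNNGAA, both of which read the same on either strand. Capitals in Hspa5 mark the endoplasmic reticulum stress element, CCAAT and CCACG with 9 bases between them.

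Hspa1a, chr17:34972213-34972300, minus strand, positions -144 to -57 from the start site: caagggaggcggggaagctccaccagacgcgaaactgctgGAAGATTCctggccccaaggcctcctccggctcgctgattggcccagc
Hspb1, chr5:135887762-135887869, plus strand, positions -157 to -50: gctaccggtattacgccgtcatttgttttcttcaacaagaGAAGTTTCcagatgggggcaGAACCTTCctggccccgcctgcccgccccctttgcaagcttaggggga
Hspd1, chr1:55088019-55088116, minus strand, positions -184 to -87: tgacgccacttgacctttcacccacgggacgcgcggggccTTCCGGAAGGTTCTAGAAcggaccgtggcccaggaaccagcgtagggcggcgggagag
Hspe1, chr1:55088019-55088116, plus strand, positions -129 to -32: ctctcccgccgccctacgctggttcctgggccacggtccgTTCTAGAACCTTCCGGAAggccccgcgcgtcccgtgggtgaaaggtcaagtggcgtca
Hspa5, chr2:34771985-34772083, plus strand, positions -105 to -7: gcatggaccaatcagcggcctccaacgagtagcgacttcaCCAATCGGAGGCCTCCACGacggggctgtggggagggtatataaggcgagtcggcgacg

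Hspd1 and Hspe1 are neighbours that are read in opposite directions, so the same stretch of chromosome 1 stands before both. The heat shock element of 2 blocks occurred before 13 of the 63 genes (20.6%) and before 14.5% of all 27025 genes with a promoter. Overlapping elements that make 3 alternating blocks occurred before Dnajb6, Hspd1 and Hspe1 (4.76%), and before 0.514% of all genes. The endoplasmic reticulum stress element occurred before Dnajc3, Hsp90b1 and Hspa5 (4.76%), against 0.13% of all genes. These are matches of letters in a short window, and binding was not measured.

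Valproate was set against DMSO first. Inhibition of histone deacetylases was not measured. On the valproate array, 3 of the 73 chaperone genes measured in this pair exceeded the DMSO array by 2-fold or more, against 2.09% of all genes. They were Hspa1a, the stress-inducible Hsp70; Hspb1, a stress-inducible small heat shock protein; and Dnajc12, a DnaJ protein that binds the aromatic amino acid hydroxylases. None (0 of 73) was at least 2-fold lower, a size reached by 1.42% of all genes. At 1.5-fold, 4 were higher and 5 lower, against 6.25% and 5.95% of all genes. The additional one on the high side was Hspb3, and the 5 on the low side were Cryab, Hspb6, Hspb8, Dnajb13 and Dnajc28.

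The family as a whole lay where all genes lay. Its median log2 difference for valproate against DMSO was -0.09, and that of all genes was -0.08, with 30 chaperone genes above 0 and 43 below 0, against 39.3% and 60.7% of all genes. Scaling the arrays on spike-in RNA instead moved the median of all genes to 0.26 and that of the chaperone genes to 0.25, with 60 of them above 0 and 13 below. Under quantile normalization 38 were above 0 and 35 below.

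Lamotrigine was the other drug compared. On the lamotrigine array, 0 of the 72 chaperone genes measured in this pair exceeded the DMSO array by 2-fold, and 0 fell short of it by as much. The corresponding shares of all genes were 0.0976% and 0.0628%. At 1.5-fold the counts were also 0 and 0, against 1.12% and 0.76% of all genes. The median was -0.06 for the chaperone genes and -0.05 for all genes, with 24 chaperone genes above 0 and 48 below 0, against 39.8% and 60.2% of all genes. Spike-in scaling put 60 above 0 and 12 below, and quantile normalization 38 above and 33 below. The comparisons of the drugs with DMSO share the 1 DMSO array.

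The drugs can be set against each other without the DMSO array. On the valproate array, 4 of 73 chaperone genes were at least 2-fold higher than on the lamotrigine array, against 2.06% of all genes, namely Dnajc12, Hspa1a, Hspb1 and Hspb3. Another 3 were at least 2-fold lower, against 1.69% of all genes, namely Cryab, Dnajb13 and Hspb8. At 1.5-fold the counts were 4 higher and 6 lower, against 6.17% and 5.84% of all genes, with Dnajc3, Hspb2 and Hspb6 added on the low side. In all, 31 lay above 0 and 42 below, against 45.3% and 54.7%, or 46 and 27 under spike-in scaling. The doses of the drugs differ by their labels, 1 mM for valproate and 100 µM for lamotrigine, so the values stand side by side and say nothing of equal exposure. Valproate gave the highest of the 3 values for 22 of the 72 genes detected on every array (32.1% of all genes), and the lowest for 33 (47.5% of all genes). Lamotrigine and DMSO were the closest pair for 39 of the 72, against 51.5% of all genes.

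**Figure D1:**
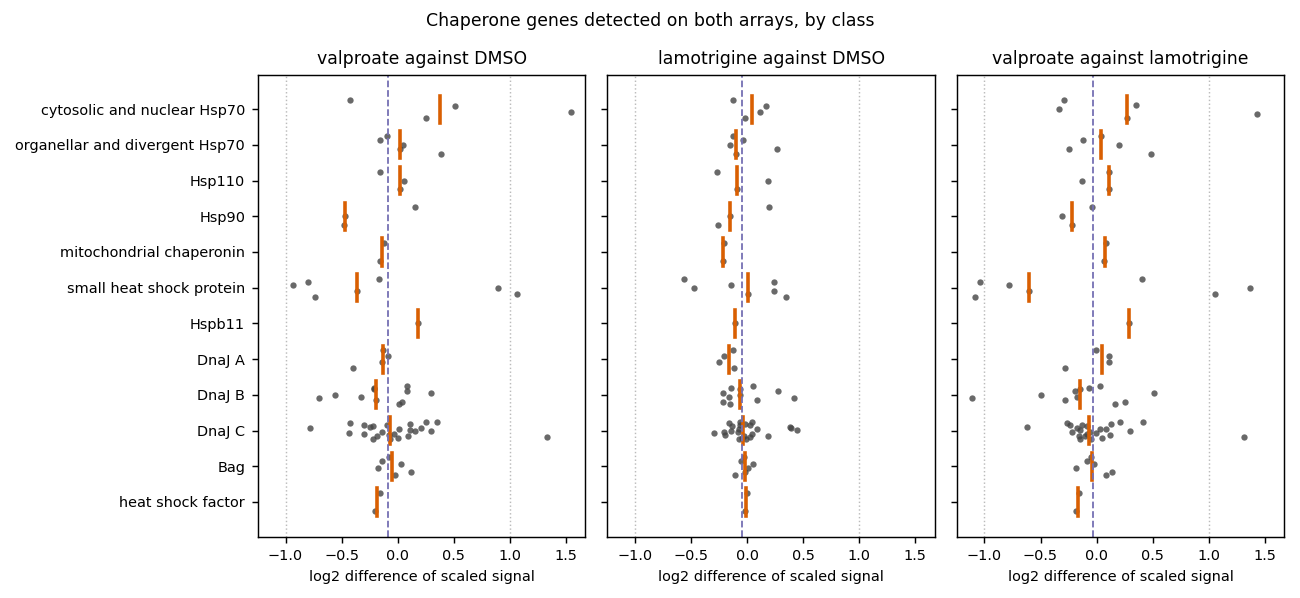
Log2 differences of scaled signal for the chaperone genes detected on both arrays, by class, in 3 comparisons. Each point is 1 gene by its representative probe, the orange bar is the class median, the dashed line the median of all genes and the dotted lines mark 2-fold. Both valproate panels hold points past 2-fold among cytosolic Hsp70, small heat shock protein and DnaJ C genes. The panel of valproate against lamotrigine also holds 1 among DnaJ B genes. The panel of lamotrigine against DMSO has no point past 1.5-fold.

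Among the cytosolic and nuclear Hsp70 genes, the inducible form was higher with valproate and the constitutive form lower. Hspa1a had a scaled signal of 109.7 on the valproate array, 40.8 on the lamotrigine array and 37.7 on the DMSO array. The valproate value stood apart, at 2.91-fold the DMSO value (log2 difference 1.54), while lamotrigine and DMSO differed by 0.11, about the technical SD of 0.12 at that signal. Its probe was annotated at chr17:35107117-35107176 (mm9, minus strand). Hspa1a lies between Hspa1b and Hspa1l on chromosome 17, and Hspa1b is known to be almost identical to it, so the probe may read both; this was not tested.

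Hspa8, the constitutive Hsp70 known as Hsc70, had 12276 on the valproate array, 15054 on the lamotrigine array and 16430 on the DMSO array. It was lowest with valproate, with a log2 difference from DMSO of -0.42, and its other 2 probes gave -0.39 and -0.14. Hspa2, known from male meiosis and present in brain, had 697 with valproate, 548 with lamotrigine and 488 with DMSO, and differed by 0.52 on the log2 scale between valproate and DMSO. Hspa14, which works at the ribosome, had 2003 with valproate, 1663 with lamotrigine and 1686 with DMSO (0.25 for valproate against DMSO). Both genes were highest on the valproate array. Hspa1l, known from spermatids, was near background, at 5.22 with valproate and 6.58 with lamotrigine, and was not well above background with DMSO.

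The class median of these Hsp70 genes was 0.38 for valproate against DMSO over 4 genes and 0.05 for lamotrigine against DMSO. The first of these was above 0 under every scaling tried, between 0.38 and 0.73.

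Hsp70 genes of the organelles and the divergent members lay close together on the 3 arrays. Hspa5, the Hsp70 of the endoplasmic reticulum known as BiP, had 3828 with valproate, 4170 with lamotrigine and 4274 with DMSO. Hspa9, the mitochondrial Hsp70, had 1263, 1231 and 1346 on the valproate, lamotrigine and DMSO arrays. Their log2 differences for valproate against DMSO were -0.16 and -0.09, and spike-in scaling and quantile normalization turned both signs. Hspa13, a microsomal member, had 390 with valproate, 340 with lamotrigine and 378 with DMSO. Hspa12a had 20.1 with valproate, 14.4 with lamotrigine and 15.4 with DMSO, and its log2 difference of 0.39 compares with a technical SD of 0.23 at that low signal. Hspa12b differed by 0.02 for valproate against DMSO and by 0.26 for lamotrigine against DMSO, the second with a technical SD of 0.24.

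The Hsp110 genes, which release nucleotide from Hsp70, were within 0.27 of DMSO on the log2 scale with either drug by their representative probes. Hsph1, the stress-inducible member, had 1860 with valproate, 1722 with lamotrigine and 2079 with DMSO. Hspa4 had 1581 with valproate, 1462 with lamotrigine and 1557 with DMSO, and Hspa4l had 728, 795 and 698 on those arrays. The 3 probes of Hspa4 did not read alike, with log2 differences for valproate against DMSO of 0.02, 0.10 and 0.77. The class median was 0.02.

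The Hsp90 genes of the cytosol were lower with valproate. Hsp90ab1, the constitutive cytosolic Hsp90, had 14626 with valproate, 18164 with lamotrigine and 20220 with DMSO. Hsp90aa1, its stress-inducible counterpart, had 5327 with valproate, 6190 with lamotrigine and 7423 with DMSO. Both were lowest on the valproate array. For valproate against DMSO the log2 differences were -0.47 and -0.48, and for lamotrigine against DMSO -0.15 and -0.26, of which the first turned above 0 under quantile normalization and spike-in scaling. Neither reached 1.5-fold. Hsp90b1, the Hsp90 of the endoplasmic reticulum, had 3013 with valproate, 3106 with lamotrigine and 2707 with DMSO, so that both drugs stood slightly above DMSO. The class median of -0.47 for valproate against DMSO ranged from -0.47 to -0.12 over the settings tried.

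Hspd1 and Hspe1 form the folding chamber of the mitochondrial matrix and its lid. Hspd1 had 2929 with valproate, 2806 with lamotrigine and 3260 with DMSO. Hspe1 had 2583 with valproate, 2438 with lamotrigine and 2816 with DMSO. The neighbours followed the same order on the 3 arrays, with log2 differences of -0.15 and -0.12 for valproate against DMSO and of -0.22 and -0.21 for lamotrigine against DMSO. Spike-in scaling turned the valproate signs of both, and quantile normalization that of Hspe1.

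**Figure D2:**
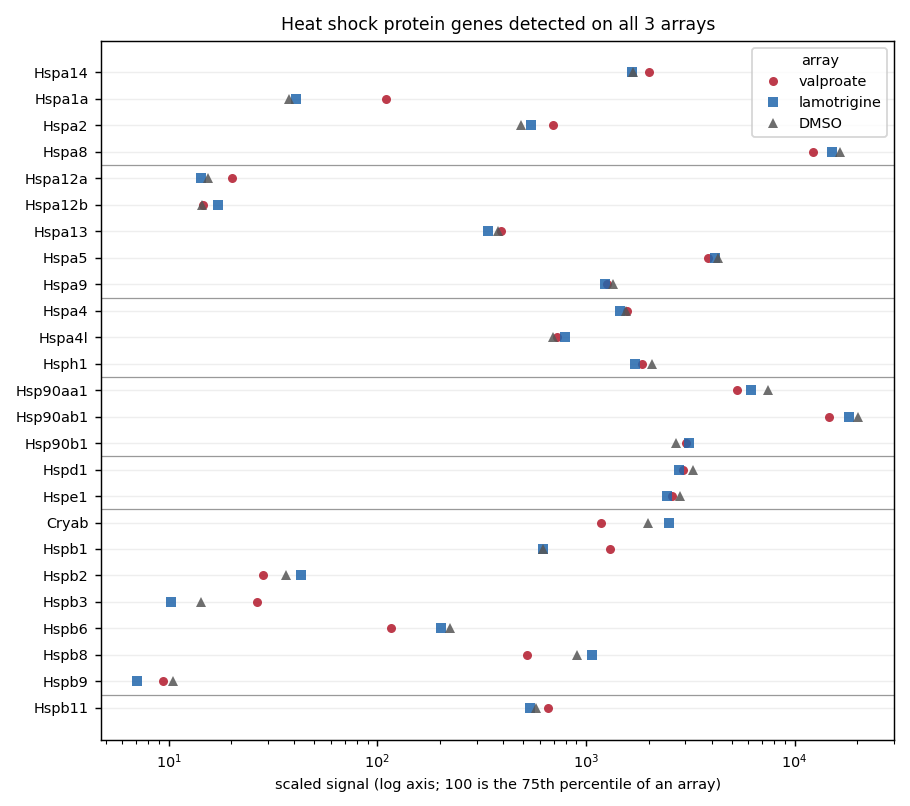
Scaled signal on a log axis for each heat shock protein gene detected on all 3 arrays, with valproate as circles, lamotrigine as squares and DMSO as triangles. Grey lines separate the classes, which are, from top to bottom, cytosolic Hsp70, organellar Hsp70, Hsp110, Hsp90, mitochondrial chaperonin, small heat shock proteins and Hspb11. The valproate circle stands apart to the right for Hspa1a, Hspb1 and Hspb3 and to the left for Cryab, Hspb6 and Hspb8.

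The small heat shock proteins lay on both sides of the DMSO array with valproate. Of the 7 detected, 2 were above it and 5 below it, against 39.3% and 60.7% of all genes, and 2 stood 1.5-fold or more above it and 3 as far below, against 6.25% and 5.95%. Hspb1, known as Hsp27 or Hsp25, had 1300.0 on the valproate array, 625 on the lamotrigine array and 623 on the DMSO array. The valproate value was 2.09-fold the DMSO value (log2 difference 1.06), while lamotrigine and DMSO were level (0.00). Its probe was annotated at chr5:136365366-136365425 (mm9, plus strand). Hspb3, known from muscle and motor neurons, had 26.6 with valproate, 10.3 with lamotrigine and 14.3 with DMSO. Its log2 difference of 0.89 for valproate against DMSO ranged from 0.33 under the normexp background correction to 1.24 under spike-in scaling. Against lamotrigine it was 1.37, or 0.57 under normexp, which is below 1.5-fold.

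Cryab, or αB-crystallin, a small heat shock protein of lens, muscle and glia, had 1187 with valproate, 2512 with lamotrigine and 1976 with DMSO. It was lowest with valproate and highest with lamotrigine, with log2 differences from DMSO of -0.73 and 0.35. Its second probe gave -0.68 and 0.31. Hspb8, which works with Bag3 in the removal of aggregates, followed the same order, with 523 with valproate, 1072 with lamotrigine and 910 with DMSO. Its log2 differences were -0.80 for valproate against DMSO and 0.24 for lamotrigine against DMSO. Hspb2, a muscle-rich member that lies beside Cryab on chromosome 9, had 28.2 with valproate, 42.9 with lamotrigine and 36.4 with DMSO, again the same order.

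Hspb6, or Hsp20, known from smooth and heart muscle, had the lowest log2 difference of all chaperone genes for valproate against DMSO, -0.93. Its scaled signal was 117 with valproate, 201 with lamotrigine and 223 with DMSO, so it shared the low valproate value with Cryab and Hspb8 but not their high lamotrigine value. Hspb9, known from testis, was close to background at 9.36 with valproate, 7.08 with lamotrigine and 10.5 with DMSO. Hspb11 had 657 with valproate, 538 with lamotrigine and 579 with DMSO. The median of the 7 small heat shock proteins was -0.37 for valproate against DMSO, with -0.02 under spike-in scaling, and 0.00 for lamotrigine against DMSO.

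Astrocyte markers were lower with valproate as well. The summed scaled signal of the 12 astrocyte markers was 24035 on the valproate array, 44790 on the lamotrigine array and 45532 on the DMSO array. Of the 12, 11 were below the DMSO array with valproate, against 60.7% of all genes, with a median log2 difference of -0.52. At least 1.5-fold lower were 5 of them, against 5.95% of all genes. Fibroblast and meningeal markers summed to 13643 with valproate, 17791 with lamotrigine and 17617 with DMSO, and oligodendrocyte lineage markers to 4589, 4674 and 5116 on those arrays. The oligodendrocyte sum leaves out Mag on the valproate array, where it was not well above background. The other 11 ranged from -3.75 to 0.83 on the log2 scale for valproate against DMSO. Among them 2 were at least 1.5-fold higher and 3 lower, against 6.25% and 5.95% of all genes. The pan-neuronal sum was 27638 with valproate, 32395 with lamotrigine and 36621 with DMSO. The part of these cell types in the values of Cryab, Hspb2, Hspb6 and Hspb8 was not tested.

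**Figure D3:**
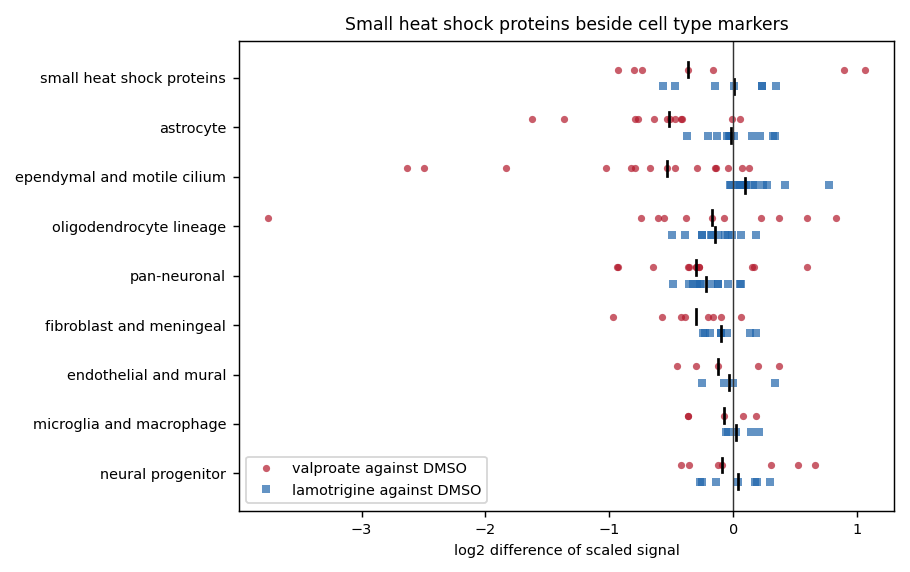
Log2 differences from DMSO for the small heat shock proteins and for 8 lists of cell type markers, with valproate as circles above and lamotrigine as squares below in each row. Each point is 1 gene detected on both arrays and the black bar is the median. With valproate the medians of the small heat shock proteins (-0.37), the astrocyte markers (-0.52) and the motile cilium markers (-0.53) lie left of 0, and with lamotrigine they lie at 0.00, -0.02 and 0.10. The other marker lists also have valproate medians left of 0, from -0.30 (pan-neuronal, and fibroblast and meningeal) to -0.08 (microglia and macrophage). The valproate median of all genes is -0.08.

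The DnaJ co-chaperones mostly stayed near the DMSO array. Of the 40 measured for valproate against DMSO, 1 was at least 2-fold higher (2.09% of all genes) and none (0) 2-fold lower (1.42%), 16 were above 0 and 24 below 0 (39.3% and 60.7% of all genes), and the median was -0.09, or 0.25 under spike-in scaling. For lamotrigine against DMSO, all 39 measured lay within 1.5-fold, past which lay 1.12% of all genes on the high side and 0.76% on the low side, with a median of -0.06. The class medians for valproate against DMSO were -0.13 for class A, -0.19 for class B and -0.06 for class C, and under spike-in scaling all 3 turned above 0, that of class C also under quantile normalization.

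Dnajc12 stood alone in this group. It had 285 on the valproate array, 115 on the lamotrigine array and 113 on the DMSO array. The valproate array was 2.52-fold above DMSO (log2 difference 1.33) and the other two arrays differed by 0.02, less than the technical SD of 0.09 at that signal. The probe was annotated at chr10:62871211-62871270 (mm9, plus strand). Next came Dnajc9, a co-chaperone that also binds histones, at 2040 with valproate, 1532 with lamotrigine and 1599 with DMSO (0.35 for valproate against DMSO). It belongs to the nuclear, splicing and ribosome members, of which 4 of 5 were above DMSO with valproate (39.3% of all genes), with a median of 0.25 that was above 0 under every setting tried.

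On the low side, Dnajb13, a protein of sperm tails and motile cilia, had 18.5 with valproate, 39.98 with lamotrigine and 29.99 with DMSO. The log2 differences were -0.70 for valproate against DMSO, 0.41 for lamotrigine against DMSO and -1.11 for valproate against lamotrigine. Motile cilium markers followed the same order: their summed scaled signal was 3060 with valproate, 4336 with lamotrigine and 3856 with DMSO, 15 of 16 were detected on each array, and Spag6 was not well above background. With valproate, 13 of the 15 were below DMSO, against 60.7% of all genes. The part of ciliated cells in the Dnajb13 value was not tested.

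Dnajc28 was measured at 6.08 with valproate and 10.5 with DMSO and was not well above background with lamotrigine. Its undetected lamotrigine reading of 5.05 was 2.08-fold below DMSO, with a technical SD of 0.24 on the log2 scale. It was thus not among the 72 chaperone genes and 39 DnaJ genes measured for lamotrigine against DMSO. The signals of Dnajc28 are close to the detection limit. Dnajb2, a co-chaperone rich in neurons, had 330.0 with valproate, 466 with lamotrigine and 488 with DMSO. Its log2 difference of -0.56 for valproate against DMSO was shared by its second probe (-0.59). Dnajc18 had 193 with valproate, 225 with lamotrigine and 260.1 with DMSO (-0.43 for valproate against DMSO). Dnajc7, which binds both Hsp70 and Hsp90, had 1913 with valproate, 2297 with lamotrigine and 2571 with DMSO, also a difference of -0.43. All 3 genes were lowest on the valproate array. The second probe of Dnajb2 read lamotrigine above DMSO (0.10), and spike-in scaling turned the lamotrigine sign of Dnajb2 and Dnajc7.

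All 4 DnaJ class A genes were below the DMSO array with both drugs in their representative probes, but most of these signs were not stable. Of all genes, 60.7% were below DMSO with valproate and 60.2% with lamotrigine. Of the valproate signs in class A, only that of Dnaja1 held under every setting: spike-in scaling turned the other 3, quantile normalization that of Dnaja3, and the mean of detected probes those of Dnaja2 and Dnaja4. The lamotrigine sign turned for Dnaja1 under spike-in scaling and quantile normalization, and for Dnaja4 under spike-in scaling and the mean of probes. Dnaja1, the main cytosolic partner of Hsc70, had 3893 with valproate, 4728 with lamotrigine and 5128 with DMSO. Dnaja2, another cytosolic partner, had 539 with valproate, 499 with lamotrigine and 593 with DMSO, and its second probe had 286, 215 and 254 on those arrays. Dnaja3, the mitochondrial member, had 744, 687 and 791 on the valproate, lamotrigine and DMSO arrays, and Dnaja4 had 323, 325 and 354.

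In class B, the stress-inducible partner of Hsp70, Dnajb1, had 2096 with valproate, 1874 with lamotrigine and 2084 with DMSO, so that valproate and DMSO differed by 0.01 on the log2 scale. Dnajb1 thus did not share the high valproate value of Hspa1a. Dnajb4, another stress-inducible member, had 24.6 with valproate, 28.2 with lamotrigine and 23.2 with DMSO. Dnajb3, known from testis, had 152 with valproate, 106.9 with lamotrigine and 124 with DMSO, and Dnajb9, a member of the endoplasmic reticulum, had 237, 232 and 223 on those arrays.

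In class C, Dnajc3, an endoplasmic reticulum member that restrains stress kinases, was lowest with valproate and highest with lamotrigine, as Cryab was. It had 189 with valproate, 292 with lamotrigine and 224 with DMSO. The log2 differences were -0.24 for valproate against DMSO, 0.38 for lamotrigine against DMSO and -0.63 for valproate against lamotrigine, and the first of these turned to 0.10 under spike-in scaling. The 4 vesicle and membrane traffic members, among them the synaptic vesicle protein Dnajc5 and the clathrin uncoating partner Dnajc6, had a median of 0.10 for valproate against DMSO. That median turned to -0.06 under the normexp background correction.

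**Figure D4:**
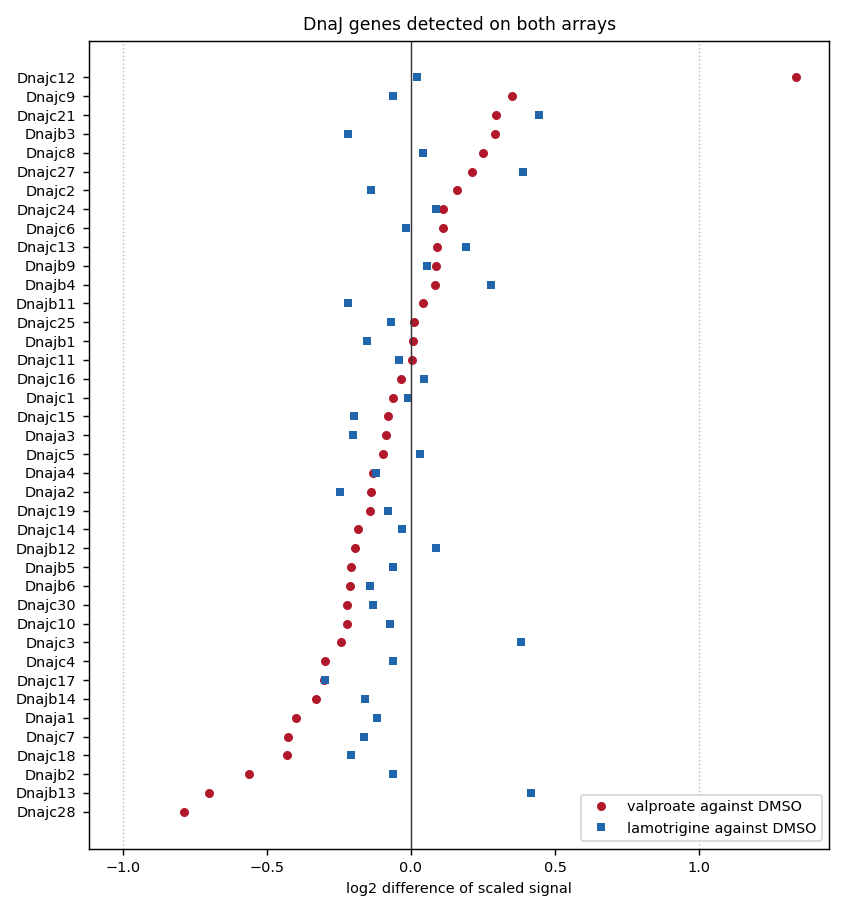
Log2 differences of scaled signal from DMSO for the DnaJ genes detected on the valproate and DMSO arrays, sorted by the valproate value, with valproate as circles and lamotrigine as squares. Dotted lines mark 2-fold. Dnajc12 lies alone past 2-fold with valproate, at 1.33, and 24 of the 40 valproate circles lie below 0.

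By their representative probes, none of the Bag genes and heat shock factors reached 1.5-fold in any of the 3 comparisons. Among all genes, 6.25% were higher and 5.95% lower by that much for valproate against DMSO, and 1.12% and 0.76% for lamotrigine against DMSO. For valproate against lamotrigine the shares were 6.17% and 5.84%. Bag3, a stress-inducible partner of Hspb8, had 200.4 with valproate, 228 with lamotrigine and 226 with DMSO (-0.18 for valproate against DMSO). Bag2 had 209 with valproate, 191 with lamotrigine and 193 with DMSO, and Bag4 had 41.8, 42.6 and 40.96 on those arrays. Bag5 had 338 with valproate, 359 with lamotrigine and 372 with DMSO. Across the representative probes of the 6 Bag genes the largest distance from DMSO was 0.18 with valproate, while the second probes of Bag5 and Bag6 gave -0.36 and -0.39. Hsf1 had 154 with valproate, 174 with lamotrigine and 177 with DMSO. Hsf2, a factor known from development, had 208 with valproate and 231 with each of lamotrigine and DMSO.

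The stress-inducible members, most of them cytosolic but with Hspd1 and Hspe1 of the mitochondria counted among them, did not move together. Of the 14 measured, Hspa1a and Hspb1 were at least 2-fold higher with valproate than with DMSO (2.09% of all genes). Cryab and Hspb8 were at least 1.5-fold lower (5.95% of all genes). The median was -0.16, or 0.19 under spike-in scaling, against -0.08 and 0.26 for all genes. Heat shock elements of 2 blocks stood before 13 of the 63 genes with a promoter. For valproate against DMSO, those above 0 were Hspa1a (1.54), Hspb1 (1.06), Hspb3 (0.89), Dnajc27 (0.21) and Dnajb4 (0.08). Those below 0 were Hspb6 (-0.93), Dnaja1 (-0.40), Dnajc10 (-0.22), Dnajb6 (-0.21), Hsph1 (-0.16), Hspd1 (-0.15), Dnaja4 (-0.13) and Hspe1 (-0.12). In the same comparison 39.3% of all genes lay above 0 and 60.7% below 0. A link between the element and these values was not tested. For the members of the endoplasmic reticulum the median was -0.05 over 12 genes, with none (0) at 1.5-fold (6.25% of all genes higher and 5.95% lower), and for those of mitochondria -0.11 over 8 genes, both above 0 under spike-in scaling and the second also under quantile normalization.

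Partners of these chaperones that the gene names above leave out were described from separate lists. The cytosolic chaperonin CCT had a median log2 difference of -0.15 for valproate against DMSO over 8 subunits, and prefoldin, which feeds it, -0.14 over 6. The Hsp90 and Hsp70 co-chaperones had a median of -0.10 over 19, with 0 of them at 1.5-fold, against 6.25% of all genes higher and 5.95% lower. All 3 medians turned above 0 under spike-in scaling, and those of CCT and the co-chaperones also under quantile normalization. Between the drugs, 2 of 20 co-chaperones were at least 1.5-fold higher with valproate than with lamotrigine, against 6.17% of all genes. Fkbp5, an Hsp90 partner at steroid receptors, had 328 with valproate, 203 with lamotrigine and 233 with DMSO. Sgtb, a neuronal relative of a cytosolic co-chaperone, had 142 with valproate, 84.2 with lamotrigine and 106.7 with DMSO.

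Of the 17 folding genes of the endoplasmic reticulum outside the family, 1 was at least 1.5-fold higher with valproate than with DMSO and 0 were lower, against 6.25% and 5.95% of all genes. It was Sdf2l1, which works with Hspa5 and Dnajb11, at 171 with valproate, 89.0 with lamotrigine and 87.8 with DMSO. Its partners were near DMSO, with log2 differences of -0.16 for Hspa5 and 0.04 for Dnajb11. Of 10 mitochondrial folding and proteolysis genes none (0) reached 1.5-fold, against 6.25% of all genes higher and 5.95% lower, and the median was 0.01.

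Several probes read the same gene in 23 cases detected on all 3 arrays. For valproate against DMSO the probes of 18 of these genes had the same sign, and the median distance between a gene's lowest and highest probe was 0.23 on the log2 scale. For lamotrigine against DMSO the probes of 11 of the 23 shared a sign. The same shares over all genes with several probes were not computed, so these counts are not a trait of the chaperone genes. Hspa1a, Hspb1, Hspb3, Hspb6, Hspb8 and Dnajc12 each had 1 probe, so no second reading of them exists on these arrays.

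**Figure D5:**
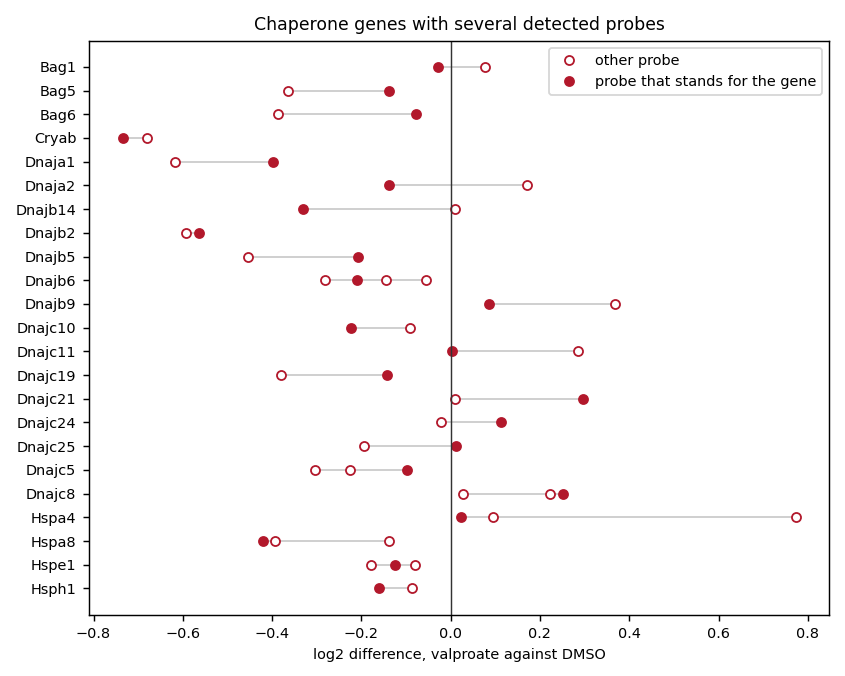
Log2 difference for valproate against DMSO of every detected probe of the 23 chaperone genes with several probes; filled circles are the probes that stand for their gene and open circles the others. The probes of Cryab and Dnajb2 lie close together and well left of 0, whereas the 3 probes of Hspa4 spread from 0.02 to 0.77.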

How the data were processed

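Per the file headers, the authors read spot intensity with Feature Extraction 10.7.1.1, on 3 arrays of 1 slide whose probes were annotated on mm9. The intensity used was the processed signal, which is background-subtracted within an array. The authors also deposited a table of linear intensity values, which were equal in distribution between its columns (each with a median of 22.6), and its software was not given in the sources used here. That table served as an alternative, and its 3 columns of presence calls were not used.

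Levels were log2 of the processed signal minus log2 of the array's 75th percentile over non-control spots, with outlier spots left out. A probe was detected if most of its spots were well above background. Probes were joined to RefSeq genes, 110 of the 121 chaperone probes by accession and 11 by symbol. Each gene took its probe with the highest mean level. Where a gene was detected on 1 array of a pair, the other was set to the higher of its own signal and the array's detection floor. The fold is a lower bound where the floor was used, and only approximate where the undetected signal was. The detection floor was a scaled signal of 3.88 for valproate, 4.63 for lamotrigine and 5.29 for DMSO.

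No test was possible with 1 array per treatment, so counts at 2-fold and 1.5-fold are descriptions beside the same share of all genes. Technical spread came from 265 probes, printed 10 times and detected on all arrays. Genes named in the text were, per class, those at least 1.5-fold apart in any comparison, the 2 highest and 2 lowest of valproate against DMSO and the stress-inducible members. Those named from other lists were at least 1.5-fold apart. Other names, such as Hspa12b, Dnajc5, Dnajc6 and Dnajb11, were chosen after their values were seen. The members and lists were chosen with earlier results of these data known. Alternatives covered scaling, background correction, detection, the choice of probe and the fold threshold. Computation used Python 3.11.15, pandas 2.3.3, numpy 2.4.6, matplotlib 3.10.9, R 4.3.3 and limma 3.58.1, and the code was tested on simulated data.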

Additional observations from a re-analysis of the deposited data

How the results depend on the processing

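For valproate against DMSO, the count of chaperone genes at least 2-fold higher (3) became 5 with no detection filter and 0 at a 3-fold threshold, and the count lower (0) became 5 at 1.5-fold. Its median (-0.09) became 0.25 under spike-in scaling, 0.00727 under quantile normalization and 0.00721 in the authors' deposited table. For lamotrigine against DMSO, the counts of 0 higher and 0 lower became 2 and 1 with no detection filter, and the median (-0.06) became 0.14 under spike-in scaling. For valproate against lamotrigine, the count higher (4) became 0 at 3-fold and 3 under normexp, where Hspb3 was no longer past 2-fold. The count lower (3) became 0 under spike-in scaling, 1 under normexp, 6 at 1.5-fold and 0 at 3-fold, and the median (-0.05) became 0.091 under spike-in scaling. The cause was not tested, apart from thresholds and filters that change the counts by construction. No gene past 2-fold changed sign in any comparison, and Hspa1a, Hspb1 and Dnajc12 were past 2-fold for valproate against DMSO in all 9 settings. The detection settings and the mean of probes cannot change the value of a gene read by 1 probe and detected on all arrays. The deposited table gave nearly the same values as quantile normalization. Hspb1, with a log2 difference of 1.06 and a technical SD of 0.07, lay close to the 2-fold threshold. Low signal read by a single probe limits Hspb3, Hspb2, Hspb9, Hspa12a, Dnajb13, Dnajc27 and Dnajc28, among others. No paired analysis was possible because each treatment had 1 array.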

Other observations

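For valproate against DMSO, 36 of the 73 chaperone genes changed sign in at least 1 of 9 other settings of scaling, background, detection or probe choice, 19 of them under spike-in scaling alone. The same share over all genes was not computed, so the count is not a trait of the chaperone genes. Spike-in scaling moved the median of all genes from -0.08 to 0.26.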
